A study of Mus musculus with 16 samples.

Results

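The genes described here are 10 genes of p53 signaling and cell cycle arrest, chosen by name out of 21923 genes in the deposited table. They are Cdkn1a, Cdkn1b and Cdkn1c (the Cip/Kip inhibitors of cyclin-dependent kinases), Gadd45a, Gadd45b and Gadd45g (stress sensors), and the p53-regulated genes Mdm2, Ccng1, Trp53inp1 and Btg2. All 10 had enough counts to be tested in every comparison. Their levels were compared in gastrocnemius, a calf muscle, of 16 mice by poly(A) RNA-seq, with 1 library per mouse and 4 mice in each of 4 groups.

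NOR mice were injected with PBS instead of tumor cells and, by the study's methods, received daily PBS from day 9 as well. Tumor-bearing CAC mice received PBS daily from day 9. AM mice carried the same tumors and received amiloride, a diuretic that blocks sodium transport, at 2 mg/kg daily from day 9. In KD mice the tumors grew from cells with a Rab27 knock-down, and PBS was given, so the knock-down was in the tumor cells and not in the muscle. The study's methods state that the mice were 6 to 8 weeks old at purchase, and the muscle was collected on day 30. Mice 1 and 2 of every group were labelled C57BL/6, the host of LLC lung carcinoma cells. Mice 3 and 4 were labelled BABL/c, spelled BALB/c in the growth protocol, the host of CT26 colon carcinoma cells. Strain and tumor line therefore change together and cannot be told apart. The labels and the study's supplement name both sexes for BALB/c and males for C57BL/6, whereas its main methods name males.

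p53 is a transcription factor that is stabilized after DNA damage and other stress. It switches on Cdkn1a, whose product p21 stops the cell cycle, and also Mdm2, whose product marks p53 for degradation and so closes a feedback loop. In muscle fibers, which no longer divide, Cdkn1a and Gadd45a are also known as genes that rise during denervation, fasting and other forms of atrophy, where ATF4, FoxO and glucocorticoid signals act on them without a need for p53. Cdkn1b encodes p27 and Cdkn1c encodes p57, and the Gadd45 proteins bind kinases of the p38 and JNK pathways and take part in DNA demethylation.

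The sequence upstream of the start was available for 8 of the 10 genes in RefSeq (GRCm38.p6); it was not matched for Cdkn1c and Trp53inp1. The 250 bases before each start were searched on both strands for the p53 half-site, a motif of 10 bases. It occurred in 4 of the 8 genes, Cdkn1a, Gadd45a, Mdm2 and Ccng1, and in 8.2% of 27025 genes. A full site of 20 bases, made of adjoining half-sites with at most 1 base off the consensus, was searched for after the sequences had been seen. It occurred in Cdkn1a and Ccng1 and in 0.0925% of all genes, and a full site with no base off occurred in none of the 8. The windows of the 3 members whose calls are described below are given 5′ to 3′ on the gene's strand, with matches to a half-site or to this full site in capitals. Cdkn1a has a second start 2790 bases downstream, whose window held no match. The Cdkn1a window is chr17:29090729-29090978 (+), the Gadd45a window chr6:67037408-67037657 (−) and the Ccng1 window chr11:40755287-40755536 (−).
Cdkn1a: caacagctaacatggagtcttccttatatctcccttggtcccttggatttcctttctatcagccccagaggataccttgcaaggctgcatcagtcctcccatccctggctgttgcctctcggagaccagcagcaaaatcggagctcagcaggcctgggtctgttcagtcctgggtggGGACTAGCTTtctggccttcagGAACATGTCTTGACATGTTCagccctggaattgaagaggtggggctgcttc
Gadd45a: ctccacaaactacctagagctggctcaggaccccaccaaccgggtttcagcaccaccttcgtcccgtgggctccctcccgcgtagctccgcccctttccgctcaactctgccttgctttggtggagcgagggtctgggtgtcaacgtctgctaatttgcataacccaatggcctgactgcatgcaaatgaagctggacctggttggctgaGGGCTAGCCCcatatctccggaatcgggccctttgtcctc
Ccng1: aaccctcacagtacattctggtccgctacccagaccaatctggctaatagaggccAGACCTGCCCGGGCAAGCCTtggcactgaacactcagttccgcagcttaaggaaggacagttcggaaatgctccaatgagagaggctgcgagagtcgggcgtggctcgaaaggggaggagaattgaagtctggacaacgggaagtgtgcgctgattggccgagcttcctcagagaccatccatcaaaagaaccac
Counted from the start, with -1 as the base before it, the full site lay at -51 to -32 in Cdkn1a and at -195 to -176 in Ccng1, and the half-site of Gadd45a at -40 to -31. The start of Gadd45a in GENCODE M21 lies 50 bases further upstream, so that by this annotation the half-site is at bases 11 to 20 of the gene, whereas the full sites of Cdkn1a and Ccng1 lie upstream of both starts. GTAAACA, bound by FoxO factors, stood in Mdm2 alone and in 3.54% of genes; TGATGNAA, bound by C/EBP and ATF factors together, stood in Gadd45g alone and in 3.91% of genes; and TTCNNNGAA, bound by STAT factors, stood in none of the 8 and in 8.13% of genes. A match describes letters and does not show binding.

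Total counts per library ran from 35913190 to 61032708, and counting error was far below the differences between mice. No gene separated the labelled strains with a gap of 8-fold or more, but 7 genes, among them H2-Q2 and Ifi202b, were higher in CAC 4, AM 1, AM 3 and KD 1 than in the other 12 libraries by at least that gap. These 4 libraries carried both strain labels, so strain effects below are effects of the label. Summed over 9 B and T cell markers, 5 libraries (NOR 1, CAC 1, CAC 4, KD 2 and KD 3) had 0.447 to 3.18 CPM and the other 11 had 33.0 to 383 CPM. KD 3 had all 4 Y-linked genes at 0, and the other 15 libraries did not. Summed myofibre markers (5 of 5 detected, none at 0) were 114302 to 163328 CPM in NOR and 50151 to 117475 CPM in CAC. Fibroblast markers were 1525 to 1827 CPM in NOR and 696 to 1178 CPM in CAC. In contrast, satellite cell markers were 29.7 to 52.9 CPM in NOR and 56.0 to 82.3 CPM in CAC, neutrophil markers 3.38 to 20.9 and 79.1 to 182 CPM, and erythroid markers 643 to 890 and 2462 to 5684 CPM. The part of these markers in the results below was not tested, and in whole muscle fewer cells of a type and less RNA per cell cannot be told apart. Results that lost their call without the 4 or without the 5 libraries are marked where they are given.

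In CAC vs. NOR, edgeR called 3 of the 10 genes at an FDR of at most 0.05 with a change of at least 1.5-fold. Of all 14666 genes tested, 9.45% were called, 4.32% higher and 5.13% lower. Cdkn1a and Gadd45a rose and Ccng1 fell. The median log2 fold change of the 10 genes was 0.04, against 0.01 for all genes, and 5 of them were above 0 and 5 below. In 4 of 10 genes the groups did not overlap, against 23.3% of all genes. In AM vs. CAC, Gadd45a alone was called by edgeR, as a fall, against 3.66% of all genes called and 2.03% called lower, and the median of the 10 genes was -0.32, against 0.01 for all genes. Satellite cell markers were lower in all AM mice (37.7 to 50.8 CPM) than in any CAC mouse and fibroblast markers higher (1244 to 1706 CPM), and the part of these markers in the AM results was not tested. No member was called in KD vs. CAC, where the share over all genes was 0.00685%, nor in AM vs. NOR, KD vs. NOR or AM vs. KD, where edgeR called no gene at all. DESeq2 called 5 members in CAC vs. NOR (13.2% of all genes by that tool), 4 in AM vs. CAC (7.67%), 2 between KD and CAC (2.43%), 1 between AM and NOR (0.476%), 0 between KD and NOR (0.211%) and 0 between AM and KD (0.00681%). With limma-voom 3 members were called between CAC and NOR, 1 between AM and CAC and 0 in the other 4 comparisons. The share of all genes called by limma-voom is not given here, so these 3 counts cannot be set against it. An unadjusted p below 0.05 was found for 6 members in CAC vs. NOR (29.1% of all genes), 5 in AM vs. CAC (21.7%), 4 in KD vs. CAC (11.1%), 2 in AM vs. NOR (9.19%), 0 in KD vs. NOR (3.54%) and 2 in AM vs. KD (1.11%).

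**Figure D1:**
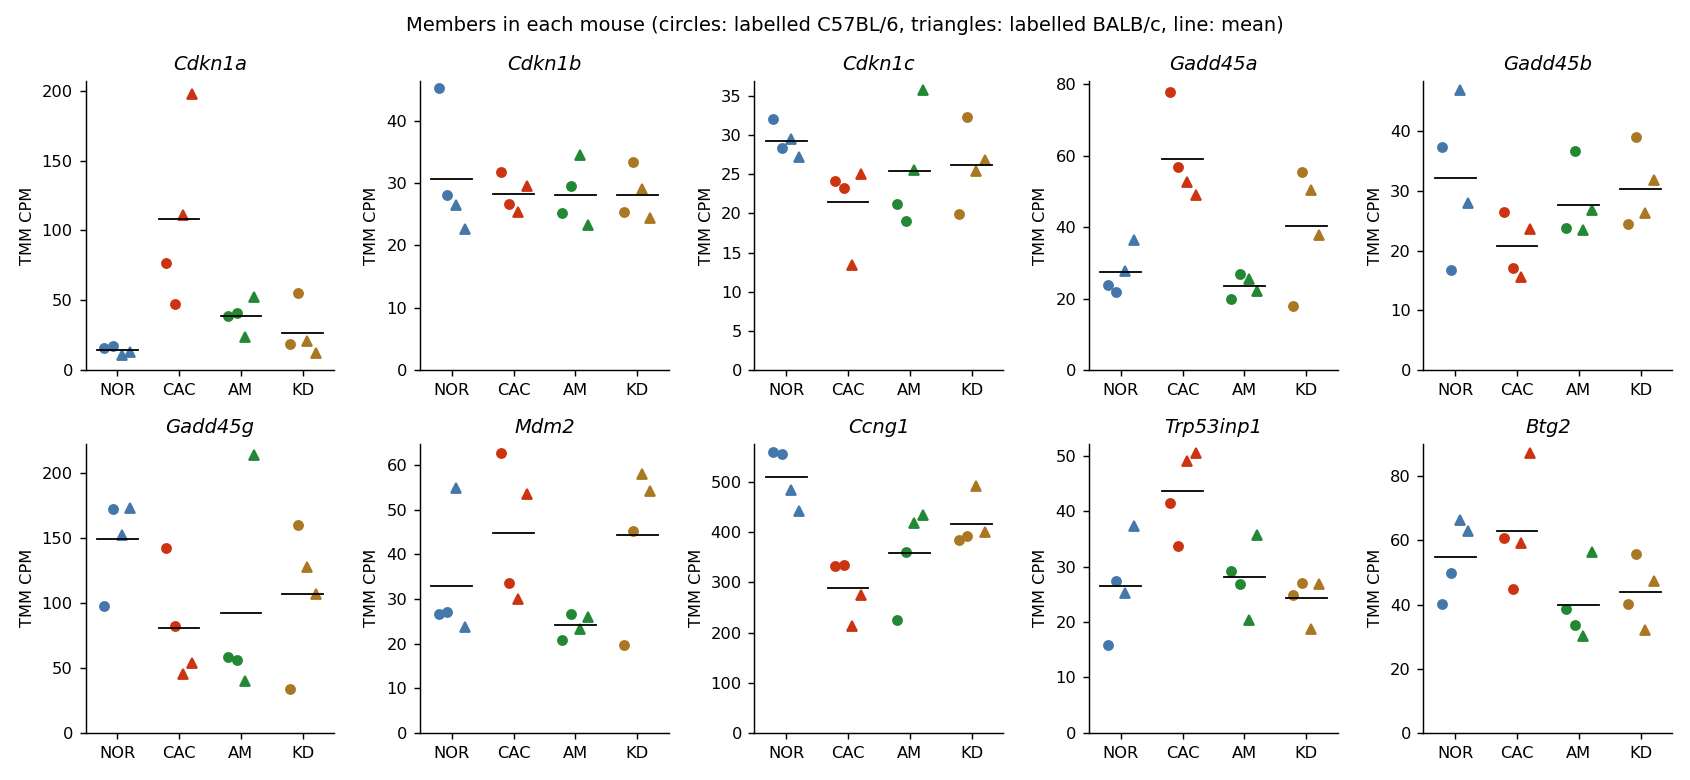
Level of each of the 10 genes in each mouse, in CPM after TMM scaling (vertical axis from 0), for the NOR, CAC, AM and KD groups, with circles for mice labelled C57BL/6, triangles for mice labelled BALB/c and a line for the mean of 4 mice. Cdkn1a and Gadd45a lay higher and Ccng1 and Cdkn1c lower in all 4 CAC mice than in any NOR mouse.

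Among the Cip/Kip genes Cdkn1a, the gene of p21, changed most. It stood at 15.6, 17.1, 10.9 and 12.99 CPM (counts scaled to a common library size by TMM) in NOR mice 1 to 4 and at 76.4, 47.5, 111 and 198 CPM in CAC mice 1 to 4. It stood at 38.6, 41.0, 24.1 and 52.5 CPM in AM mice and at 18.7, 55.1, 20.9 and 12.4 CPM in KD mice. Every CAC mouse was above every NOR mouse, and the lowest and highest CAC mice differed by more than the whole NOR range. AM mice lay between, all above NOR, with AM 4 alone reaching into the CAC range, and of the KD mice KD 2 alone did so. CAC vs. NOR gave a log2 fold change of 2.93 ± 0.42 (SE, edgeR quasi-likelihood test, FDR = 0.00543). It was called without the 4 libraries (2.47) and without the 5 libraries (2.58).

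For Cdkn1a the AM and CAC mice differed by a log2 fold change of -1.46 ± 0.42 (edgeR, FDR = 0.0886), which did not pass the FDR limit. It was -0.77 (edgeR, FDR = 0.397) without the 4 libraries, -1.05 without the 5 libraries and -0.62 in mice labelled C57BL/6 alone. In AM vs. NOR it was 1.47 ± 0.24, with an edgeR p of 2.05e-04 and an FDR of 0.504 over all genes. The AM and NOR groups did not overlap for this gene, a pattern seen in 5.11% of all genes, and the two-sided exact permutation p was 0.0286, the smallest that 4 against 4 mice allow. In KD vs. CAC it was -2.02 ± 0.57 (edgeR, FDR = 0.28), with -0.72 in mice labelled C57BL/6 alone and -3.24 in mice labelled BALB/c alone. KD vs. NOR gave 0.92 ± 0.43 (edgeR, FDR = 0.999). DESeq2 called Cdkn1a in AM vs. CAC, in AM vs. NOR and between KD and CAC. With KD 2 left out, KD vs. NOR gave 0.29, against 0.92 with it.

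The mean of Cdkn1a went from 16.4 CPM in NOR to 61.9 CPM in CAC in mice labelled C57BL/6, and from 11.9 CPM to 154 CPM in mice labelled BALB/c (2 mice each). The interaction of strain with condition, as the log2 effect in BALB/c minus that in C57BL/6, was 1.84 ± 0.45 with an edgeR p of 0.0054 and an FDR of 0.685. It therefore did not pass over all genes, and no gene passed in any of the 3 interactions tested. Members with the opposite sign included Gadd45g, with -1.38 ± 0.46 (edgeR, FDR = 0.953), and Gadd45a, with -0.82 ± 0.28 (edgeR, FDR = 0.964). In mice labelled C57BL/6 alone Cdkn1a had a log2 fold change of 1.92 (edgeR, FDR = 0.0538), and in mice labelled BALB/c alone 3.71 (edgeR, FDR = 0.0854).

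The other Cip/Kip genes did not rise. Cdkn1b, the gene of p27, stood at 45.2, 28.1, 26.4 and 22.5 CPM in NOR and at 31.7, 26.6, 25.4 and 29.5 CPM in CAC. Its values were 25.2, 29.5, 34.5 and 23.3 CPM in AM and 25.4, 33.4, 29.0 and 24.4 CPM in KD. All 4 groups overlapped, NOR 1 being the highest library, and the log2 fold changes were between -0.12 and 0.01 in the 6 comparisons, with an FDR of at least 0.774 (edgeR). Cdkn1c, the gene of p57, stood at 32.0, 28.3, 29.5 and 27.2 CPM in NOR and at 24.1, 23.2, 13.4 and 25.0 CPM in CAC. Every CAC mouse was below every NOR mouse (exact permutation p = 0.0286), but the log2 fold change of -0.46 ± 0.18 had an FDR of 0.137 (edgeR). In AM it was 21.1, 19.1, 25.6 and 35.7 CPM and in KD 19.9, 32.3, 25.4 and 26.8 CPM, so both groups overlapped NOR and CAC.

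On the scale of FPKM, which divides by gene length and so allows levels of different genes to be compared, the make-up of the family shifted. The part of the summed Cip/Kip FPKM held by Cdkn1a was 21.8 ± 3.4% in NOR mice, 69.1 ± 13.4% in CAC mice, 46.0 ± 8.6% in AM mice and 34.0 ± 11.6% in KD mice (mean ± SD, n = 4). Cdkn1c held the largest share in NOR, with 54.0 ± 4.4%, and 19.6 ± 9.5% in CAC. Divided by the length of all annotated exons in place of the deposited length, Cdkn1a held 15.95% in NOR and 61.0% in CAC. Of the summed Gadd45 FPKM, Gadd45a held 16.8 ± 2.8% in NOR mice, 44.9 ± 6.3% in CAC mice, 24.2 ± 9.9% in AM mice and 28.2 ± 1.7% in KD mice. Gadd45g held 67.2 ± 8.8% in NOR and 42.5 ± 8.1% in CAC. With the annotated exon lengths Gadd45a held 9.64% in NOR and 30.5% in CAC.

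**Figure D2:**
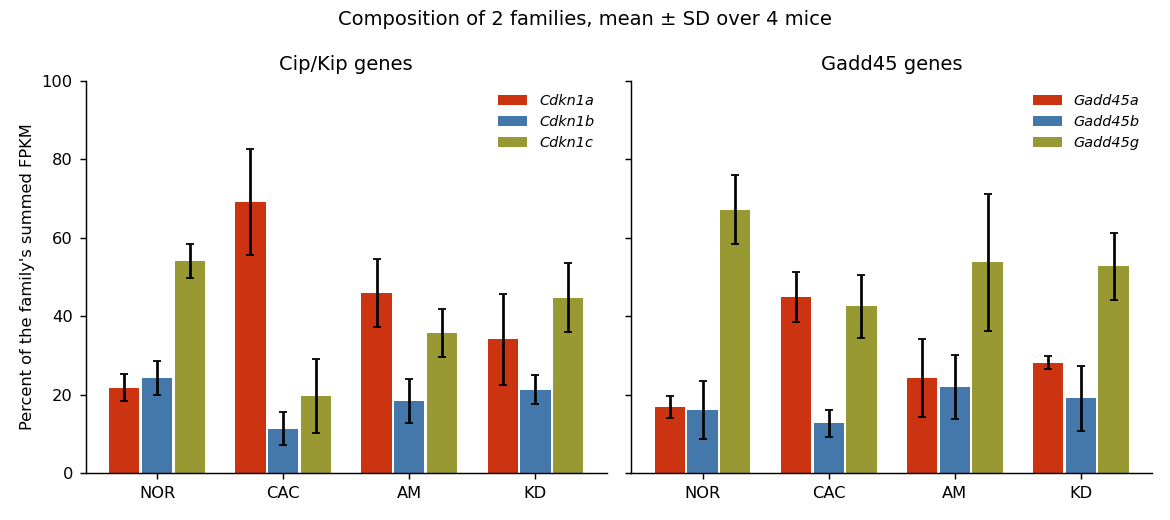
Percent of the summed FPKM of the Cip/Kip genes (left) and of the Gadd45 genes (right) held by each gene in the NOR, CAC, AM and KD groups. Bars are means and error bars are SDs over 4 mice; Cdkn1a went from 21.8% in NOR to 69.1% in CAC, and Gadd45a from 16.8% to 44.9%.

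Of the Gadd45 genes Gadd45a was the one called by edgeR. It stood at 23.7, 21.9, 27.7 and 36.3 CPM in NOR and at 77.8, 56.7, 52.6 and 48.8 CPM in CAC. It stood at 19.8, 26.9, 25.5 and 22.2 CPM in AM and at 18.1, 55.4, 50.3 and 37.9 CPM in KD. All CAC mice were above all NOR and all AM mice, and AM mice lay within or below the NOR range, whereas KD mice 2 and 3 lay in the CAC range and KD 1 below every NOR mouse. CAC vs. NOR gave a log2 fold change of 1.10 ± 0.19 (edgeR, FDR = 0.0102), and AM vs. CAC one of -1.32 ± 0.16 (edgeR, FDR = 0.00695). Both comparisons use the same 4 CAC mice. Without the 5 libraries they were 0.97 (edgeR, FDR = 0.0697) and -1.23 (edgeR, FDR = 0.0511), and without the 4 libraries 1.19 (edgeR, FDR = 0.0135) and -1.36 (edgeR, FDR = 0.107), with the same sign but fewer mice in each fit. With a replicate block AM vs. CAC gave -1.30 (edgeR, FDR = 0.106), and the call was lost. In KD vs. CAC the value was -0.55 ± 0.32 (edgeR, FDR = 0.567), and in AM vs. KD -0.77 ± 0.31 (edgeR, FDR = 1).

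Gadd45b stood at 37.4, 16.7, 46.8 and 28.0 CPM in NOR and at 26.5, 17.1, 15.6 and 23.7 CPM in CAC. It was 23.4 to 36.6 CPM in AM and 24.4 to 39.0 CPM in KD, and the groups overlapped in every comparison. CAC vs. NOR gave -0.65 ± 0.31 on the log2 scale (edgeR, FDR = 0.214) and KD vs. CAC 0.55 ± 0.22 (edgeR, FDR = 0.408). Gadd45g stood at 97.6, 172, 152 and 173 CPM in NOR and at 142, 82.3, 45.5 and 53.6 CPM in CAC. In AM it was 58.7, 56.4, 40.04 and 213 CPM and in KD 33.4, 160, 128 and 107 CPM. AM 4 was the highest and KD 1 the lowest of all 16 libraries, so that the AM and KD groups each spanned the whole CAC range. In CAC mice Gadd45g differed from NOR by a log2 fold change of -0.88 ± 0.35 (edgeR, FDR = 0.13), the opposite sign to Gadd45a, and without CAC 1 it was -1.29 (edgeR, FDR = 0.0295). DESeq2 called this fall (-0.89, FDR = 0.0497). The edgeR value was -0.27 in mice labelled C57BL/6 alone and -1.69 in mice labelled BALB/c alone. Without AM 4 the value in AM vs. CAC changed from 0.20 to -0.64, neither of which passed.

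Among the p53-regulated genes Ccng1, the gene of cyclin G1, which acts with Mdm2 to restrain p53, had the highest mean FPKM of the 10 genes in every group, with a range that overlapped the next gene in each. It stood at 559, 555, 484 and 442 CPM in NOR and at 333, 335, 214 and 275 CPM in CAC. It stood at 226, 360, 418 and 433 CPM in AM and at 383, 392, 493 and 399 CPM in KD. All CAC mice were below all NOR and all KD mice, and all AM mice were below all NOR mice. Ccng1 fell in CAC mice (log2 fold change -0.83 ± 0.16 against NOR, edgeR, FDR = 0.0156), a change opposite in sign to Cdkn1a. It was -0.80 (edgeR, FDR = 0.0356) without the 4 libraries and -0.82 (edgeR, FDR = 0.107) without the 5 libraries, and without NOR 2 its FDR was 0.0503. In KD vs. CAC it was 0.52 ± 0.18 (edgeR, FDR = 0.352), and in AM vs. NOR -0.50 ± 0.20 (edgeR, FDR = 0.531). KD vs. CAC had 7.29% of all genes without overlap.

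Mdm2, the ubiquitin ligase of p53, stood at 26.5, 27.1, 54.8 and 23.6 CPM in NOR and at 62.6, 33.5, 30.0 and 53.4 CPM in CAC. It stood at 20.7, 26.6, 23.3 and 25.9 CPM in AM and at 19.6, 45.2, 58.1 and 54.3 CPM in KD. NOR 3 was as high as the upper CAC mice, whereas the other NOR mice were below all CAC mice. CAC vs. NOR gave 0.44 ± 0.33 on the log2 scale (edgeR, FDR = 0.421), and without the 5 libraries it was -0.12. All AM mice were below all CAC mice, a pattern found in either direction in 15.3% of genes, with a log2 fold change of -0.89 ± 0.22 (edgeR, FDR = 0.0593). It was called without CAC 3 (edgeR, FDR = 0.0454), with total counts as the only scaling (edgeR, FDR = 0.037) and with DESeq2 (FDR = 0.00648). KD vs. CAC gave -0.03 ± 0.36.

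Trp53inp1, whose product takes part in p53-dependent stress responses and in autophagy, had the lowest mean deposited FPKM of the 10 genes in every group. With the length of all annotated exons it stood at 4.02 in NOR, above Cdkn1a (3.86). It stood at 15.9, 27.5, 25.2 and 37.3 CPM in NOR and at 41.4, 33.7, 49.0 and 50.4 CPM in CAC. It stood at 29.3, 26.8, 20.3 and 35.8 CPM in AM and at 25.0, 27.1, 18.7 and 26.9 CPM in KD. NOR 4 and AM 4 overlapped CAC 2, and all KD mice were below all CAC mice. CAC mice exceeded NOR mice by 0.73 ± 0.24 on the log2 scale (edgeR, FDR = 0.0757). Against CAC, AM mice gave -0.63 ± 0.20 (edgeR, FDR = 0.106) and KD mice -0.84 ± 0.18 (edgeR, FDR = 0.231). Without NOR 4 the difference of CAC from NOR was called, with an FDR of 0.0383 (edgeR), as it was with the labelled strain as a covariate (0.73, edgeR, FDR = 0.0367), and DESeq2 called all 3.

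Btg2, an antiproliferative gene that is induced by p53 and by growth factors, stood at 40.3, 49.9, 66.2 and 63.0 CPM in NOR and at 60.7, 44.8, 59.2 and 87.3 CPM in CAC. It was 30.2 to 56.5 CPM in AM and 32.1 to 55.8 CPM in KD. The groups overlapped in every comparison. On the log2 scale CAC vs. NOR gave 0.20 ± 0.22 (edgeR, FDR = 0.599) and AM vs. CAC -0.66 ± 0.25 (edgeR, FDR = 0.167).

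**Figure D3:**
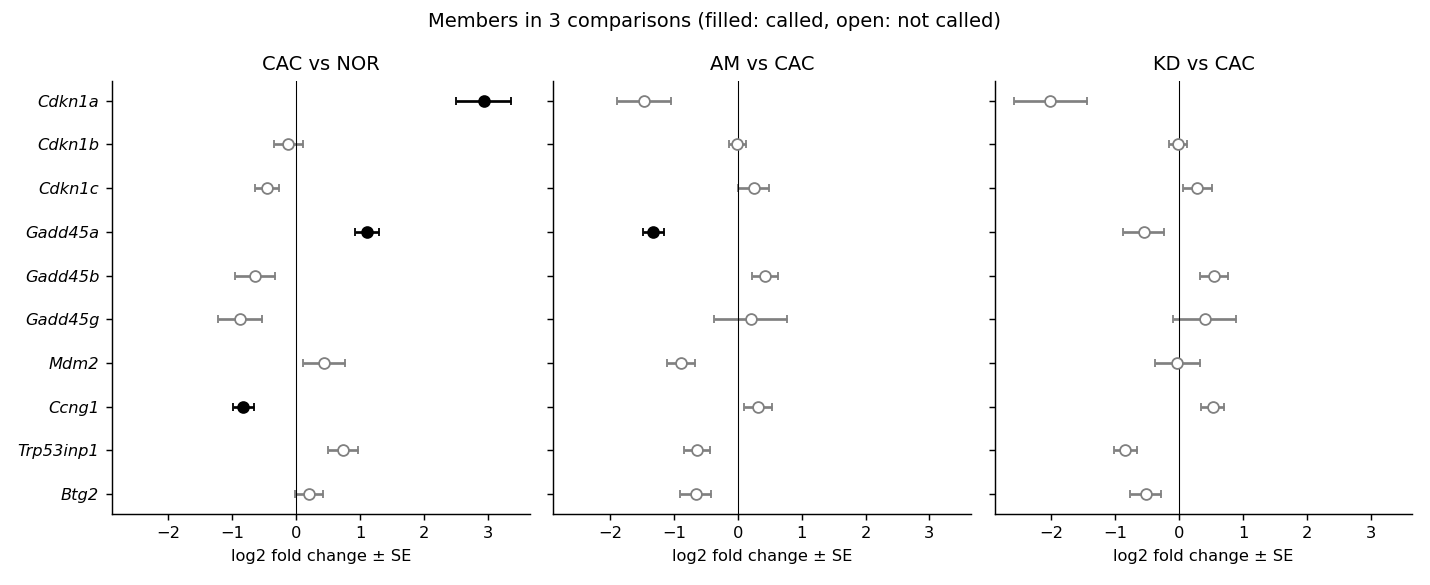
Log2 fold change with its SE (horizontal axis) of each of the 10 genes in 3 comparisons (CAC with NOR, AM with CAC, KD with CAC), with filled points for called genes and open points for genes not called. Cdkn1a (2.93) and Gadd45a (1.10) lay to the right and Ccng1 (-0.83) to the left in CAC vs. NOR, and Gadd45a (-1.32) was the one filled point in AM vs. CAC.

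In FPKM the order of the genes changed with the group. In NOR it began with Ccng1 (140.6) and Gadd45g (136), whose ranges overlapped, and Gadd45a followed at 33.4, apart from Gadd45g. Cdkn1a ranked 9 of 10 in NOR at 9.02 ± 1.80 FPKM and overlapped Cdkn1b, next above it. In CAC Cdkn1a ranked 4 at 76.5 ± 47.6 FPKM, beside Gadd45a (77.1 ± 12.4) and Gadd45g (76.9 ± 34.5), and these 3 genes overlapped. It ranked 5 in AM (25.9 ± 7.3) and 6 in KD (16.3 ± 10.0). The order depends on the length used, since with the length of all annotated exons Gadd45a stood at 15.1 in NOR, below Gadd45b and Btg2 (both 19.5), Cdkn1c at 13.9 and Cdkn1a at 3.86.

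Trp53, the gene of p53, had a mean of 32.3 ± 2.7 CPM for NOR mice, 33.2 ± 6.2 for CAC mice, 35.1 ± 5.6 for AM mice and 31.8 ± 5.5 for KD mice (SD, n = 4). The groups overlapped, and CAC vs. NOR gave 0.04 ± 0.14 (log2 fold change, edgeR, FDR = 0.888). Of 12 genes of the p53 family and its regulators, 11 were tested and none was called in CAC vs. NOR (median 0.04), against 9.45% of all genes called. Trp63, the gene of p63, fell in AM vs. CAC (log2 fold change -0.88 ± 0.15, edgeR, FDR = 0.0163). The other 10 were not called, against 3.66% of all genes called. The FDR of Trp63 was 0.0544 without AM 2, 0.0503 without AM 3 and 0.0537 without AM 4 (edgeR), and it was not called without the 4 or the 5 libraries or with all 16 libraries in 1 fit (edgeR, FDR = 0.213). RNA levels do not measure the p53 protein.

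Of 36 other p53 target genes 35 were tested in CAC vs. NOR, and 4 were called higher, 0 lower and 31 not called, against 9.45% of all genes called. Their median log2 fold change was 0.25, against 0.01 over all genes. Eda2r, a receptor of the TNF receptor family linked to muscle atrophy, was at 20.7, 24.1, 15.7 and 14.6 CPM in NOR and at 89.7, 66.3, 68.8 and 65.7 CPM in CAC. In AM it was 22.2, 28.3, 18.5 and 15.3 CPM, overlapping NOR and below every CAC mouse. The log2 fold change of Eda2r was 1.94 ± 0.19 in CAC vs. NOR (edgeR, FDR = 0.00197) and -1.78 ± 0.20 in AM vs. CAC (edgeR, FDR = 0.0053). Sesn1, a sestrin that restrains mTORC1, rose from 43.8 ± 8.5 to 141 ± 41 CPM (log2 fold change 1.68, edgeR, FDR = 0.00403) and was 48.7 ± 3.0 CPM in AM. Fas, a death receptor, rose from 7.68 ± 2.62 to 20.7 ± 4.3 CPM (1.43, edgeR, FDR = 0.00865) and was 9.56 ± 1.45 CPM in AM. Ddit4, also called REDD1, an mTORC1 inhibitor that glucocorticoids also induce, rose from 61.8 ± 48.0 to 320 ± 66 CPM (2.37, edgeR, FDR = 0.0226). Without the 5 libraries Fas and Ddit4 were not called, and the FDR of Ddit4 was 0.0602 without NOR 1, 0.071 without NOR 3 and 0.0551 without CAC 1 (edgeR), and 0.0533 with all 16 libraries in 1 fit.

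Of the same 35 genes 4 were called lower in AM vs. CAC, Eda2r, Sesn1 (-1.53), Fas (-1.11) and Rps27l (-0.69), and 0 higher, against 3.66% of all genes called. Rps27l, a ribosomal protein paralog, was at 53.3 to 55.2 CPM in CAC and at 30.2 to 37.0 CPM in AM. Without the 4 libraries none of these falls was called, and without the 5 libraries Sesn1 alone was. Fitting all 16 libraries together ended the calls of Eda2r (FDR = 0.0583), Fas (0.0541) and Rps27l (0.0586), and a replicate block ended all 4 (edgeR). The apoptosis genes Bax and Bbc3 and the cell cycle phosphatase gene Ppm1d were not called in CAC vs. NOR, with log2 fold changes of 0.27, 0.24 and 0.26; they were chosen as examples after their values were seen. In KD vs. CAC edgeR called none of 34 tested targets, against 0.00685% of all genes called, and the median of the targets was -0.02.

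**Figure D4:**
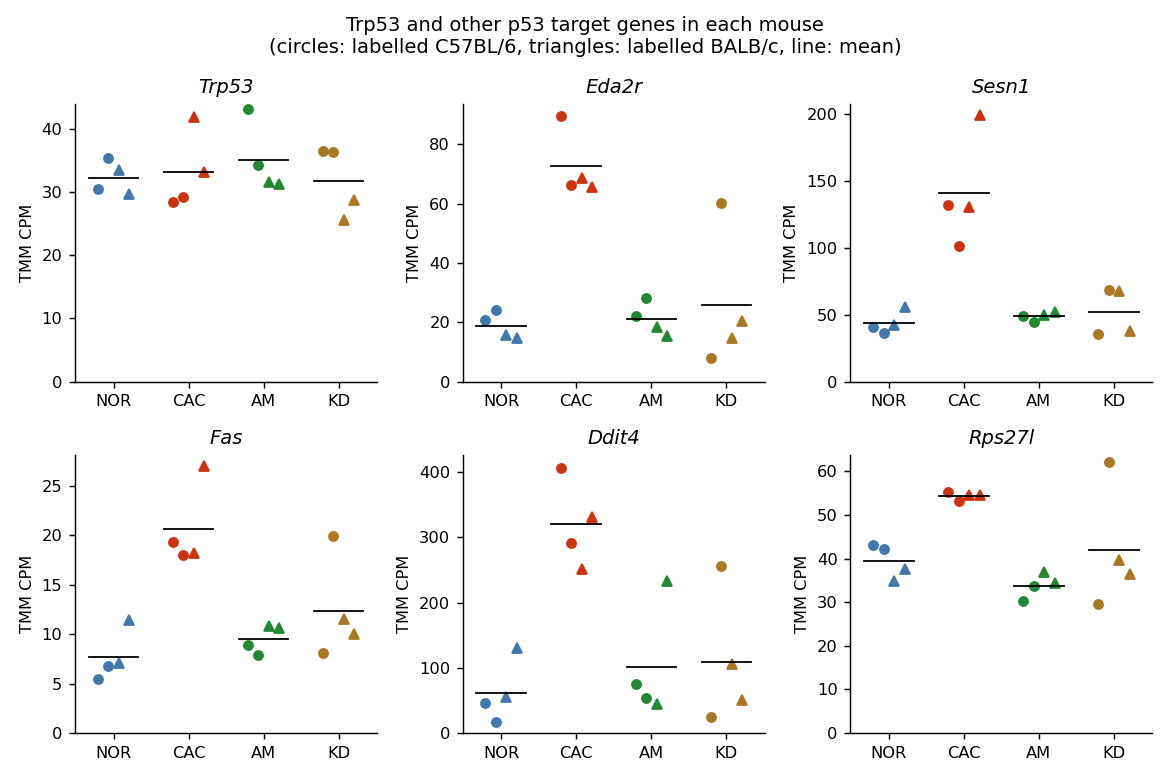
Level of Trp53 and of 5 other p53 target genes in each mouse, in CPM after TMM scaling (vertical axis from 0), with circles for mice labelled C57BL/6, triangles for mice labelled BALB/c and a line for the mean of 4 mice. Trp53 overlapped in all 4 groups, whereas Eda2r in CAC (65.7 to 89.7) lay above every NOR and AM mouse.

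For genes of the members and lists called higher in CAC vs. NOR, KD 2 was the KD mouse most often in the CAC range. Of the 12 genes among members and lists that were called higher in CAC vs. NOR, KD 2 was the highest KD mouse in 9 and lay within the CAC range in 8, whereas KD 1 and KD 4 each lay within it in 1 and KD 3 in 4. Of the 6 genes called lower, KD 2 was the lowest KD mouse in 2 and lay within the CAC range in 2, whereas KD 1 was the lowest in 3. Eda2r, for example, was at 60.2 CPM in KD 2 and at 7.79, 14.6 and 20.5 CPM in the other KD mice. KD 2 also had the highest erythroid marker sum of all libraries (13696 CPM) and the highest satellite cell marker sum of the KD mice (65.4 CPM). Its lymphocyte markers were near 0 (0.497 CPM), as were those of KD 3 (0.447 CPM). The same counts over all genes called in CAC vs. NOR are not given here. This library was singled out after its values were seen, and the part of these markers was not tested.

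Among 10 paralogs of the members, 2 were called lower in CAC vs. NOR and 0 higher (median -0.15), against 5.13% of all genes called lower and 4.32% higher. Tob1, an antiproliferative gene of the Btg family, fell from 349 ± 45 to 196 ± 17 CPM (log2 fold change -0.84, edgeR, FDR = 0.00697), and Trp53inp2, which acts in autophagy, from 442 ± 50 to 166 ± 52 CPM (-1.43, edgeR, FDR = 0.00835). Trp53inp2 thus fell where its paralog Trp53inp1 had a positive log2 fold change that was not called. Of 12 cyclin, CDK and PCNA genes 1 was called in CAC vs. NOR and 1 in AM vs. CAC, against 9.45% and 3.66% of all genes. Ccnd1, the gene of cyclin D1, fell from 43.6 ± 7.1 CPM in NOR to 14.7 ± 5.0 CPM in CAC (-1.56, edgeR, FDR = 0.00924), and Cdk2 was higher in AM than in CAC (0.63, edgeR, FDR = 0.049). Leaving out any 1 mouse other than CAC 3 raised the FDR of Cdk2 above the limit, to 0.0773 without AM 1 up to 0.12 without CAC 1 or AM 2. Its call was also lost with total counts only, without a filter on low counts, with the labelled strain as a covariate and with all 16 libraries in 1 fit (edgeR, FDR = 0.0656 to 0.137). Without the 5 libraries Tob1, Trp53inp2 and Cdk2 were not called, and without the 4 libraries Cdk2 was not.

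Gadd45 proteins act through p38 and JNK kinase cascades, and of 9 partner genes 1 was called higher and 1 lower in CAC vs. NOR, against 9.45% of all genes called. Map2k6, a kinase that activates p38, fell from 29.8 ± 2.0 to 5.78 ± 2.74 CPM (log2 fold change -2.37, edgeR, FDR = 0.00383), with every CAC mouse below every NOR mouse. Mapk13, a p38 kinase, rose from 0.138 ± 0.065 to 0.811 ± 0.322 CPM (2.52, edgeR, FDR = 0.0182), but its FDR was 0.0614 without NOR 2, 0.056 without NOR 3 and 0.0503 without CAC 1 (edgeR), and it was not called without the 5 libraries. Mapk13 was near the floor in NOR mice (0.0518 to 0.206 CPM) and passed the count filter through the CAC mice (0.336 to 1.01 CPM), where it was high. None of the 9 was called in AM vs. CAC, against 3.66% of all genes called.

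Of 15 transcription factor genes known to act on Cdkn1a or Gadd45 genes, 5 were called higher and 1 lower in CAC vs. NOR (median 0.46), against 4.32% and 5.13% of all genes. Cebpd, a C/EBP factor of the acute phase response, rose from 51.7 ± 30.8 to 349 ± 103 CPM (2.76, edgeR, FDR = 0.00522). Foxo1 rose from 51.6 ± 11.6 to 136 ± 13 CPM (1.40, edgeR, FDR = 0.00214) and Foxo3 from 53.9 ± 5.9 to 104 ± 14 CPM (0.94, edgeR, FDR = 0.00337); both encode factors that drive atrophy genes. Stat3 (0.93) and Myog (1.22), the gene of myogenin, also rose, and Egr1, an immediate early gene, fell (-2.11, edgeR, FDR = 0.00191). In AM vs. CAC Cebpd (-2.35), Foxo1 (-1.32) and Foxo3 (-0.84) fell, while 12 of the 15 were not called, against 2.03% of all genes called lower. Without the 5 libraries Foxo1 and Egr1 were the called genes of this list in CAC vs. NOR, and in AM vs. CAC none was called without the 4 libraries, while without the 5 libraries Foxo3 alone lost its call (-0.75, edgeR, FDR = 0.0968). Fitting all 16 libraries together also ended the calls of Foxo3 (FDR = 0.0573) and Cebpd (0.0561) in AM vs. CAC (edgeR). Stat3 had an FDR of 0.0635 to 0.076 when any 1 NOR mouse was left out, and Myog one of 0.0599 to 0.0911 when any NOR mouse or CAC 2 was left out (edgeR). No gene of the 6 lists was called in the other 4 comparisons. There edgeR called 0.00685% of all genes in KD vs. CAC and no gene at all in AM vs. NOR, KD vs. NOR or AM vs. KD.

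**Figure D5:**
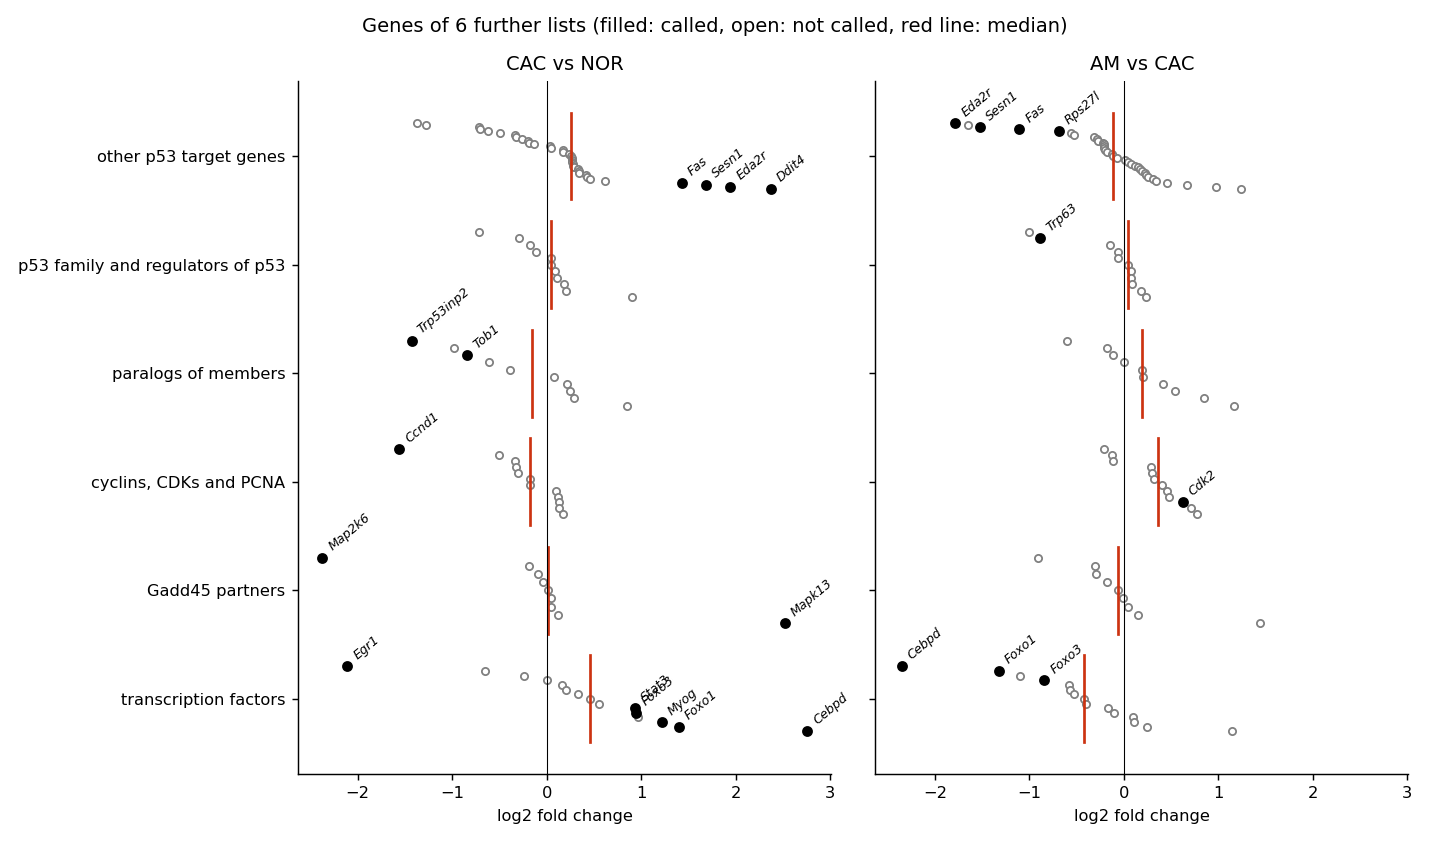
Log2 fold change (horizontal axis) of the genes of 6 lists in CAC vs. NOR (left) and AM vs. CAC (right), with filled, named points for called genes, open points for genes not called and a red line for the median of the list. Among the other p53 target genes 4 were filled to the right in CAC vs. NOR and 4 to the left in AM vs. CAC.

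Across the 16 libraries the genes with the pattern most like Cdkn1a were ranked by Pearson's r of log2 CPM over 13209 genes with a mean of at least 1 CPM. The 5 highest were Chrna9 (0.94), Mafk (0.92), Fnbp1l (0.92), Mgea5 (0.91) and Car4 (0.91). Chrna9 encodes a subunit of an acetylcholine receptor. CAC mice had 4.56 ± 4.69 CPM of it (mean ± SD), an SD larger than the mean. NOR mice were near the floor, with 0.102 ± 0.077 CPM, and the means of AM mice (0.805) and KD mice (0.229) were also below 1 CPM. Chrna9 thus passed the limit on mean CPM through the CAC mice, where it was high, and its place in the ranking rests on that group. Mafk, a small Maf factor, had a mean of 32.6 CPM for NOR mice and 61.3 CPM for CAC mice. Among the members the coefficient was 0.71 for Trp53inp1, 0.50 for Gadd45a, 0.40 for Btg2, 0.18 for Mdm2, 0.03 for Cdkn1b, -0.27 for Gadd45g, -0.36 for Cdkn1c, -0.37 for Gadd45b and -0.72 for Ccng1. The points are mice of 4 groups, so these values describe differences between groups as well as between mice.

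The genes lie on 8 chromosomes of GRCm38 (GENCODE M21 annotation). Cdkn1a (ENSMUSG00000023067) spans chr17:29090976-29100727 (+), Gadd45a (ENSMUSG00000036390) chr6:67035096-67037457 (−), and Ccng1 (ENSMUSG00000020326) chr11:40748552-40755311 (−). Cdkn1a, Cdkn1c and Gadd45a each overlap a gene on the opposite strand (AC167363.2, Gm44732 and E230016M11Rik). Of the words of 31 bases in their transcripts, 9.78%, 27.2% and 17.0% also occur in transcripts of other genes on either strand, against 1.99% in Mdm2 and at most 0.0874% in the other 6 genes. How many of these words are shared with the antisense partners was not recorded. Whether the counting used strand is not given in the sources used here. Reads from the shared part of these 3 genes may therefore not be told apart from reads of other genes.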

How the data were processed

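Poly(A) RNA from gastrocnemius of 16 mice was sequenced by the authors, with 1 library per mouse. They deposited 1 table with a read count per gene and an FPKM value per gene for each library; the counts are not normalized, and the deposited FPKM values divide them by depth and gene length. The submitters' processing notes name fastp, Bowtie2, HISAT2, StringTie 1.3.1 and the builds mm9 and GRCm38; the counting tool and strandedness are not given in the sources used here. All 16 count columns were mapped to a mouse by name, and 0 value columns were unmapped. The deposited table also holds functional annotation, which was not used here.

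Counts were tested in R 4.3.3 with edgeR 4.0.16 (TMM scaling, quasi-likelihood F test, genes kept by filterByExpr at a count of 10 and a summed count of 15) within the 8 libraries compared, with FDR adjusted over all tested genes. Genes with FDR up to 0.05 and a change of 1.5-fold or more, or of 0.667-fold or less, were called. NOISeq, which the authors used, was not installed. Single members were also compared by exact permutation of the mice (two-sided, difference of mean CPM). The interaction of labelled strain with condition was tested without a fold change limit. The scripts were tested on simulated data. Replicates are separate mice by their labels, and no pair within a group agreed within sampling noise (chi-square divided by its degrees of freedom, 67.0 or more). Likeness to Cdkn1a used log2 CPM with a prior count of 2.

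The genes named are the 10 members, Trp53, genes called in 6 lists (other p53 target genes, p53 family and regulators, paralogs of members, cyclins with CDKs and PCNA, Gadd45 partners, transcription factors that act on Cdkn1a or Gadd45 genes) and the 5 genes most like Cdkn1a. H2-Q2, Ifi202b, Bax, Bbc3 and Ppm1d fall outside this rule and were chosen after their values were seen. Where no gene of a list was called, the list gene with the largest rise and fall in CAC vs. NOR was to be named. For the p53 family these were Trp63 (0.90) and Chek2 (-0.72). The members and lists were chosen with earlier results of these data known, so no list gives independent support. Of 11 marker lists, those for macrophages (42.9 to 115 CPM in NOR and 75.7 to 131 CPM in CAC), adipocytes (78.5 to 752 and 51.7 to 688 CPM) endothelium (679 to 1082 and 819 to 1150.0 CPM), B cells (2.46 to 167 and 0.665 to 225 CPM), T cells (0.725 to 73.1 and 0.253 to 78.7 CPM) and Y-linked genes (119.8 to 128 and 128 to 174 CPM) overlapped between NOR and CAC, and the other 5, of which the myofibre list also overlapped, are given with the results. Positions came from GENCODE M21, which matched 21905 identifiers (18 did not match), and upstream sequences from RefSeq. Alternatives used DESeq2 1.42.0, limma 3.58.1 (voom), other scalings and filters, a strain covariate, a replicate block, all 16 libraries, single strains and leaving out mice. Tables and figures used Python 3.11.15, pandas 2.3.3, scipy 1.17.1 and matplotlib 3.10.9.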

Additional observations from a re-analysis of the deposited data

Results flagged for a closer look

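Each of the 10 genes was examined in each group for a library far from its 3 fellows, by the gap to the nearest of them as a share of the group's range, and 4 of 40 groups passed the limit. Chance alone gives about 1 in 20. Cdkn1c in CAC had its lowest library at 13.4 CPM (CAC 3), and the other CAC mice were at 23.2 to 25.0 CPM. Gadd45g in AM had its highest library at 213 CPM (AM 4), and the others were at 40.04 to 58.7 CPM. Mdm2 in NOR had its highest library at 54.8 CPM (NOR 3), and the others were at 23.6 to 27.1 CPM. Ccng1 in KD had its highest library at 493 CPM (KD 3), and the others were at 383 to 399 CPM. No cause was tested.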

How the results depend on the processing

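For each comparison 23 alternatives were run, 2 of them (without the 4 libraries with the 7-gene pattern and without the 5 libraries with few lymphocyte markers) added after seeing the data, as were all alternatives for list genes. The number of members called in CAC vs. NOR, 3, became 5 with DESeq2, 1 in mice labelled C57BL/6 alone, 0 in mice labelled BALB/c alone and 1 without the 5 libraries, and ranged from 2 to 4 when 1 mouse was left out. In AM vs. CAC the number, 1, became 2 with total counts only, 4 with DESeq2, 0 in either labelled strain alone and 0 without the 4 or the 5 libraries, and ranged from 1 to 2 when 1 mouse was left out (2 without CAC 3). With DESeq2 it was 2 in KD vs. CAC and 1 in AM vs. NOR. The single-strain fits have fewer mice. The share of all genes called is given above for the main edgeR fit and for DESeq2, but not for the other alternatives. Counts of members in those, a count of 0 included, therefore cannot be set against all genes. The replicate numbers were not taken to pair the mice, since in no comparison was the correlation of same-numbered deviations above 0.1 in every pair (3 of 4 pairs in CAC vs. NOR, from -0.24 to 0.68, 3 of 4 in AM vs. KD, 0 of 4 in AM vs. CAC, from -0.56 to 0.07). With the replicate block 3 members were called in CAC vs. NOR and 0 in AM vs. CAC, and Gadd45g in AM vs. CAC was -0.0599. The block also ended the calls of Stat3 (edgeR, FDR = 0.0583), Myog (0.0595) and Mapk13 (0.0526) in CAC vs. NOR, and those of all list genes called in AM vs. CAC. With the labelled strain as a covariate 4 members were called in CAC vs. NOR. The other counts of members moved by at most 1.5 times (2 in CAC vs. NOR with a fold change of at least 2), and the 0 members with a strain interaction stayed at 0 under its 5 alternatives.

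Log2 fold changes that changed sign were those of Cdkn1b in CAC vs. NOR (0.0261 with total counts only, 0.19 in BALB/c alone, 0.0506 without the 5 libraries and -0.25 to 0.16 when 1 mouse was left out), in AM vs. CAC (0.00868 with RLE scaling, 0.00411 with a minimum count of 50, 0.00869 with DESeq2, 0.0514 in BALB/c alone, 0.0992 without the 5 libraries and -0.11 to 0.0701 when 1 mouse was left out) and in KD vs. CAC (0.0395 in C57BL/6 alone, 0.0548 without the 4 libraries and -0.12 to 0.0533 when 1 mouse was left out). Mdm2 was -0.12 in CAC vs. NOR without the 5 libraries, and in KD vs. CAC 0.41 in BALB/c alone, 0.33 without the 4 libraries, 0.19 without the 5 libraries and -0.17 to 0.22 when 1 mouse was left out. Btg2 in CAC vs. NOR was -0.16 without the 5 libraries. In AM vs. CAC in C57BL/6 alone, Cdkn1c was -0.22, Ccng1 -0.18 and Gadd45g -0.95. Gadd45g in AM vs. CAC was also -0.00985 with limma-voom and -0.64 to 0.61 when 1 mouse was left out, and in KD vs. CAC it was -0.19 in C57BL/6 alone. None of these was called, and the cause was not tested.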
